A study of Rattus norvegicus with 4 samples.

Results

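The genes described here encode the enzymes that build cholesterol and fatty acids and the proteins that switch those enzymes on. The set was defined by 32 gene symbols, of which 31 were measured, among 14218 genes with a probe set annotated to them alone. These 31 genes were read by 51 of the 31099 probe sets on each array. No probe set was annotated to Hmgcs1 alone, so its level was not analysed here. The samples were cultures of Sprague-Dawley rat aortic smooth muscle cells that had 3 days with serum and 3 days of starvation. Treatment lasted 24 h and was interleukin-1b (IL-1b) at 2.5 ng/mL, the IL-1b vehicle (acetic acid at 10 mM with BSA at 0.1%), PDGF-DD at 30 ng/mL, or the PDGF-DD vehicle (BSA at 0.01%). IL-1b is an inflammatory cytokine, and PDGF-DD is a platelet-derived growth factor that acts mainly through PDGF receptor beta. Each group was 1 sample on 1 Affymetrix array, so no test could be run, and every difference below is between single arrays with no replicate check.

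Cholesterol is built from acetyl-CoA through mevalonate, farnesyl diphosphate, squalene and lanosterol, and fatty acids are built from the same acetyl-CoA through malonyl-CoA. The transcription factors encoded by Srebf1 and Srebf2 (the sterol regulatory element-binding proteins, SREBPs) activate most genes of both routes. They are made as membrane-bound precursors. When membrane sterol is low, Scap escorts the precursor to the Golgi for cleavage, and when sterol is ample, Insig1 and Insig2 hold Scap back. Insig1 is itself an SREBP target. In arterial smooth muscle, cholesterol supply is known to matter for membrane growth and for the lipid loading seen in atherosclerosis.

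Values are scaled probe set intensities, which compare one probe set between arrays and not one gene with another. Intensities under a floor of 28.1 (the 40th percentile when the values of all arrays were pooled) were set to that floor, and a fold against the floor is written as at least that fold. A gene was called higher or lower when it differed by at least 2-fold between the arrays compared. The smooth muscle label was checked against 8 markers, of which 7 were above the floor on the IL-1b array, 8 on the IL-1b vehicle array, 7 on the PDGF-DD array and 7 on the PDGF-DD vehicle array. Of 7 measured endothelial markers, 0 or 1 was above the floor on any array. Of 7 measured adipocyte markers, 2 were above the floor on the IL-1b array and 1 on each other array. Among them, Lipe was above the floor on all 4 arrays, and Adipoq and Plin1 were under it on all 4. Fabp4, another adipocyte marker, had an intensity of 149 on the IL-1b array, against 2.67 on the IL-1b vehicle array. Of 8 macrophage markers, 4 were above the floor on the IL-1b array and 1 on each other array. Cd14 was above it on all 4 arrays, and Ptprc, Cd68, Csf1r and Cd163 were under it on all 4. Aif1 had 38.2 with IL-1b against 25.2, under the floor, with its vehicle. Lyz2 had 1305 with IL-1b against 27.98 with its vehicle, at least 46.5-fold higher, and Adgre1 had 41.7 against 12.0, with the vehicle values of both under the floor. RNA quality was read from the 3'/5' ratios of the beta-actin and Gapdh probe sets. The beta-actin ratio was 2.05 with IL-1b, 1.58 with its vehicle, 1.37 with PDGF-DD and 1.26 with the PDGF-DD vehicle. The Gapdh ratio differed less, at 1.27, 1.22, 1.07 and 1.11 in the same order. The part of these markers and of RNA quality in the values below was not tested.

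SREBPs bind weakly on their own and are known to work beside NF-Y, which binds CCAAT boxes, and Sp1, which binds GC boxes. Promoter windows from 250 bases before to 50 bases after the annotated gene start were found for 25 of the 32 genes in the RefSeq table of the GRCr8 assembly. The windows were searched on both strands. A CCAAT box was present in 19 of the 25 genes (76.0%), against 39.5% of 9107 genes that were above the floor on an array and 39.6% of all 27457 genes in the table. The Sp1 box GGGCGG was present in 20 of 25 (80.0%), against 64.8% of the genes above the floor and 36.0% of all genes. The sterol regulatory element core TCACNCCAC was present in 0 of 25 windows, against 1.15% of the genes above the floor. A shorter core, TCACNCC, chosen after that result was seen and contained in the longer one, was present in 5 of 25, namely Acat2, Mvd, Cyp51, Msmo1 and Srebf2, against 16.7% of the genes above the floor. No CCAAT match shared a base with a GGGCGG match. These are matches of letters, and no binding was measured.

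Counted by the first base of the match along the gene's strand, all 39 CCAAT matches began before the gene start, 27 of them between positions -150 and -40. The median was -91. A match in Mvd began at -2 and so ran past the start. Of the 26 windows (Srebf1 had a pair of them), 11 held 2 or more CCAAT matches, and Mvk and Nsdhl held 5 each. The windows without a match were those of Scap, Acat2, Cyp51, Dhcr7, Scd and Fads2. Most bases of each window lie before the start. Positions and matches per window were not counted for other genes, so whether they differ in this set was not tested.

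**Figure D1:**
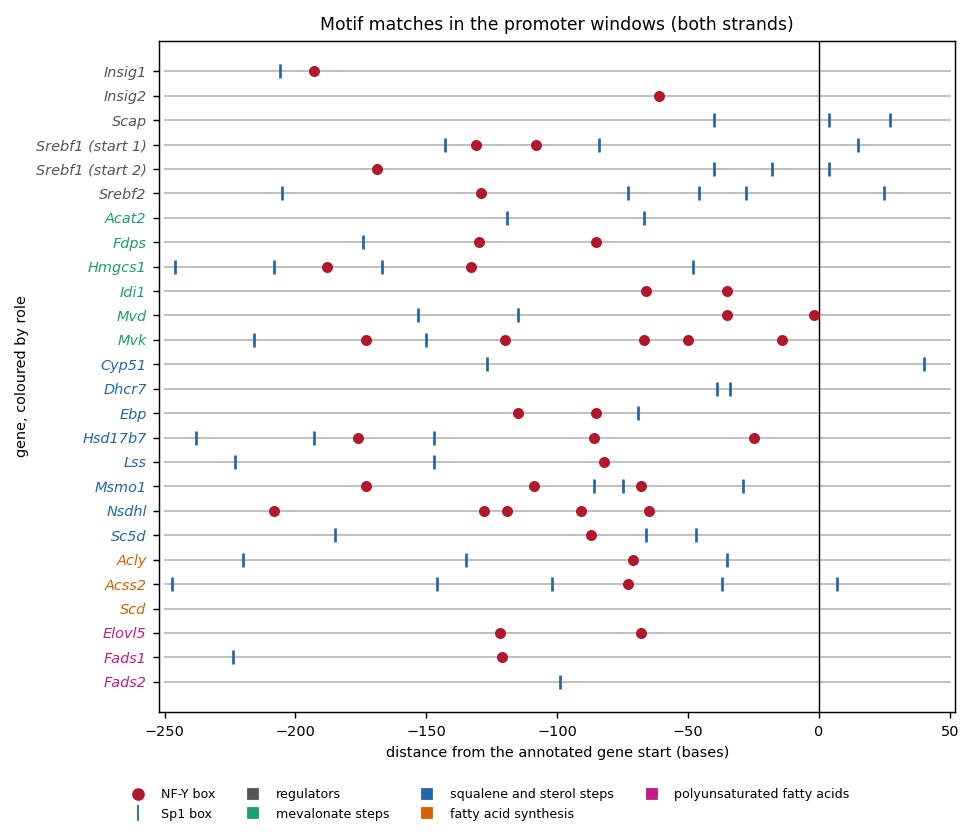
Positions of CCAAT (NF-Y box, circles) and GGGCGG (Sp1 box, ticks) matches on either strand, in bases from the annotated gene start, 1 row per promoter window of the 25 genes (2 starts for Srebf1), with gene names coloured by role. Circles, drawn at the first base of each match, lie left of the start line in 20 of the 26 rows, most of them between -150 and -40.

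The 250 bases before the start are shown for the genes that a factor set at least 2-fold apart from both vehicle arrays and that the table holds. Of 9 such genes, Sqle and Elovl6 were not in the table. The sequences are from RefSeq (GRCr8), run 5′ to 3′ on the gene's strand, and have CCAAT or its reverse complement ATTGG in capitals.
Insig1, chr4:8057770-8058019, minus strand: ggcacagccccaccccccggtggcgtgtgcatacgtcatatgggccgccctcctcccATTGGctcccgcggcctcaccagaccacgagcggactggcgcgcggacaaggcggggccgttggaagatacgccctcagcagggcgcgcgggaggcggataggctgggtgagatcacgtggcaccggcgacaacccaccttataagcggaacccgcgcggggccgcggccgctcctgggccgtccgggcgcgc
Msmo1, chr16:29746863-29747112, plus strand: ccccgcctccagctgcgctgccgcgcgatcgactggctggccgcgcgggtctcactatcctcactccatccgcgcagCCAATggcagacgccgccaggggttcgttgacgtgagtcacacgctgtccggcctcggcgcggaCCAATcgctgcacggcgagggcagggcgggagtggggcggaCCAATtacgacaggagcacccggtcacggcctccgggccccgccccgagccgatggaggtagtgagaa
Hsd17b7, chr13:84722755-84723004, minus strand: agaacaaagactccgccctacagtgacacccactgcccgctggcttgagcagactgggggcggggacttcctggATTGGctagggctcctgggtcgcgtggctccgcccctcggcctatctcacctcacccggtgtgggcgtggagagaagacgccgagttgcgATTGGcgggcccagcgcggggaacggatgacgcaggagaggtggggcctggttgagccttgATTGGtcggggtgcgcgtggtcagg
Sc5d, chr8:51538278-51538527, minus strand: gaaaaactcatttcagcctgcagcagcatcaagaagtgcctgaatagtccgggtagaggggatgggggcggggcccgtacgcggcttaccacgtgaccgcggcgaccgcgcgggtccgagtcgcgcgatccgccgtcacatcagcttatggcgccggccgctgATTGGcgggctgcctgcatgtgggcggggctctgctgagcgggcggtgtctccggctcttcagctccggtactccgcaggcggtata
Scd, chr1:253231732-253231981, minus strand: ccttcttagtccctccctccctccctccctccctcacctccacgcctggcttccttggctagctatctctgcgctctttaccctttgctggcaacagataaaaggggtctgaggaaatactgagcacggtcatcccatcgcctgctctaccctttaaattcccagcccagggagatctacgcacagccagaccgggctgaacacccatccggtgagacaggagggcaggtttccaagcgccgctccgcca
Fads1, chr1:216252442-216252691, plus strand: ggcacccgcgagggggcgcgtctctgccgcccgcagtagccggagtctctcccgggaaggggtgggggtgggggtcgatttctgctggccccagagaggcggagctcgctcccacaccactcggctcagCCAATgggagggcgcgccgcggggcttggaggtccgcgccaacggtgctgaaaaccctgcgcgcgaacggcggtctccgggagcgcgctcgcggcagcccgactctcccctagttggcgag
Fads2, chr1:216172034-216172283, minus strand: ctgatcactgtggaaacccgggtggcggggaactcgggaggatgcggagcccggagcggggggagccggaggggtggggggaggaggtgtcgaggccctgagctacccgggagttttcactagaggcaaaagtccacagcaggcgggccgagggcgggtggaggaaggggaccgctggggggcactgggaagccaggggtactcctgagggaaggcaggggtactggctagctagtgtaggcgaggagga
Msmo1 and Hsd17b7 carried 3 CCAAT boxes each, and Insig1, Sc5d and Fads1 carried 1 each. Scd and Fads2 had none in these windows, so the genes called here included some with and some without the box.

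Both PDGF-DD arrays lay above both IL-1b arrays for most of these genes. In 27 of 31 genes the PDGF-DD array was the highest of the 4, which was so for 29.4% of 10885 genes above the floor on an array. In 25 of 31 genes (80.6%) the PDGF-DD array was above the PDGF-DD vehicle array and that was above both IL-1b arrays, an order that 14.8% of the 10885 genes had. This order was chosen for description after the values were seen. It held for 6 of 6 mevalonate genes, 10 of 10 genes from squalene to cholesterol, 6 of 6 fatty acid synthesis genes and Stard4. The exceptions were Srebf1, Srebf2, Scap, Insig2, Fads1 and Elovl5. When arrays were centred on reference genes, the order held for 23 genes and no longer for Fads2 and Sc5d.

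**Figure D2:**
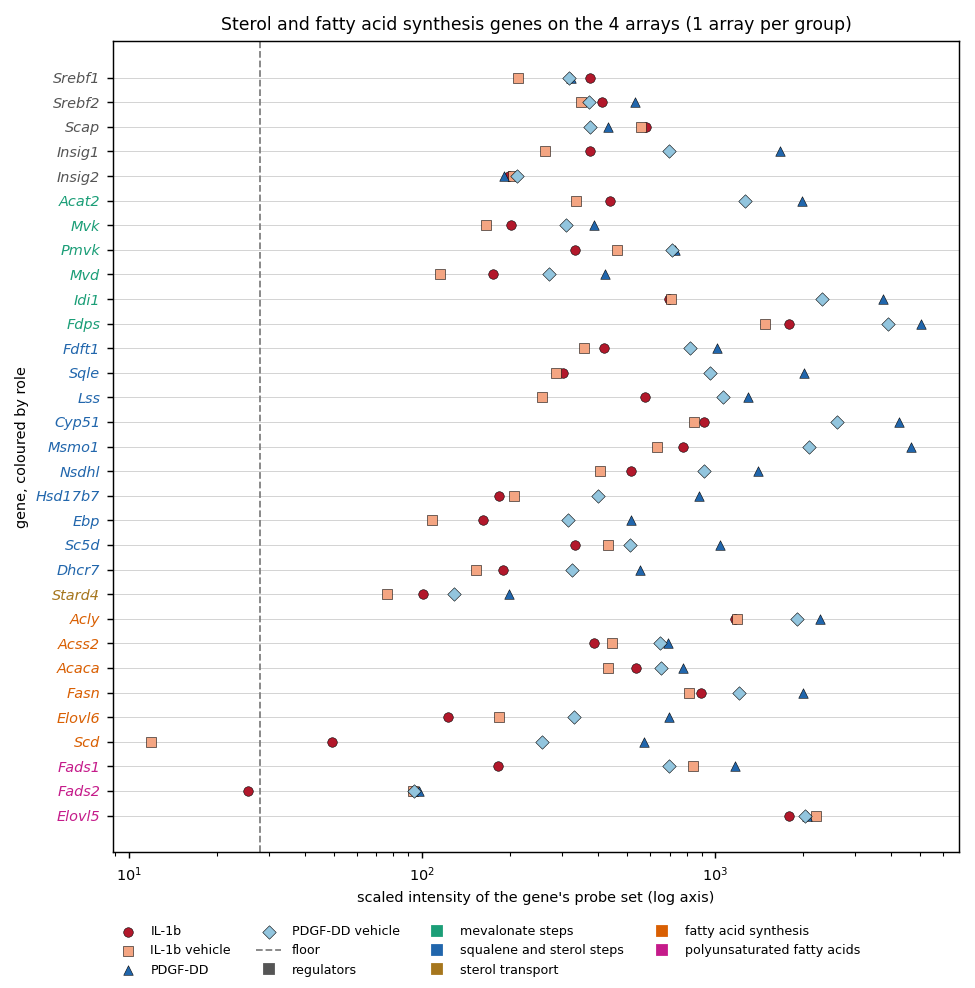
Scaled intensity (log axis) of each gene's probe set on the IL-1b, IL-1b vehicle, PDGF-DD and PDGF-DD vehicle arrays, 1 point per array, with gene names coloured by role and the floor of 28.1 dashed. In the sterol and fatty acid synthesis rows the PDGF-DD triangle lies farthest right and the PDGF-DD vehicle diamond next, while Fads1 and Fads2 stand out by a low IL-1b point.

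Against its own vehicle, PDGF-DD went with higher levels of the sterol and fatty acid genes. Of 31 genes, 7 were at least 2-fold higher, where 4.24% of all 10142 genes tested were, and 0 were at least 2-fold lower, where 4.67% of all genes were. The median log2 ratio was 0.62, against 0.01 over all genes, and 30 of 31 were above 0 (29 of 31 after quantile normalization). The 7 were Insig1, Sqle, Msmo1, Hsd17b7, Sc5d, Elovl6 and Scd, and each of them was also at least 2-fold higher than the IL-1b vehicle array, as 3.26% of all 10536 genes were. None of the 31 was at least 2-fold lower than both, where 3.06% were. Sc5d, at a log2 ratio of 1.02, was just inside the 2-fold rule, and Dhcr7, at 0.77, was the nearest outside it.

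Among the regulators, Insig1 had the highest ratio on the PDGF-DD pair. Insig1 (gene ID 64194) had intensities of 376 with IL-1b, 262 with its vehicle, 1662 with PDGF-DD and 694 with the PDGF-DD vehicle. The PDGF-DD array was thus 2.39-fold above its own vehicle and 6.34-fold above the IL-1b vehicle. Srebf2 had 412 with IL-1b, 350 with its vehicle, 532 with PDGF-DD and 372 with the PDGF-DD vehicle, a PDGF-DD log2 ratio of 0.52. Srebf1 had 322 with PDGF-DD and 318 with its vehicle, a ratio of 0.02, and its other probe set gave 0.11. Scap, the escort protein, had 583, 561, 431 and 375 on the arrays in the same order and a PDGF-DD ratio of 0.20. Insig2, whose 4 intensities spanned 190 to 212 by the probe set used, had -0.16. Its other probe set had 98.6, 94.5, 161 and 187 in the same order, a PDGF-DD ratio of -0.22. That probe set gave 0.98 for the PDGF-DD vehicle over the IL-1b vehicle. The genes of the SREBPs, their escort and Insig2 were therefore within 2-fold on the PDGF-DD pair, while Insig1 was not.

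In the mevalonate steps the PDGF-DD ratios were moderate. Acat2, the thiolase that makes acetoacetyl-CoA, had 437 with IL-1b, 336 with its vehicle, 1979 with PDGF-DD and 1268 with the PDGF-DD vehicle, and its PDGF-DD log2 ratio was 0.64. Idi1, the isopentenyl diphosphate isomerase, had 699, 709, 3738 and 2312 on the arrays in the same order, a ratio of 0.69 by this probe set and 1.31 by the other. Both IL-1b arrays were well below both PDGF-DD arrays in Acat2 and Idi1. Mvd, the decarboxylase, had 175, 115, 420 and 271, a PDGF-DD ratio of 0.63. Fdps, the farnesyl diphosphate synthase, had 1790, 1487, 5044 and 3897, a ratio of 0.37. In these genes as well the IL-1b arrays were the lowest. Mvk, mevalonate kinase, had 201, 166, 388 and 311, a ratio of 0.32. Pmvk, the next kinase, had 334, 464, 731 and 715 and stood at 0.03, with the PDGF-DD arrays nearly level.

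From squalene to cholesterol all 10 genes had a positive PDGF-DD ratio, between 0.28 and 1.15, with a median of 0.74. Sqle, squalene epoxidase, a flux-controlling step, had 304 with IL-1b, 287 with its vehicle, 2014 with PDGF-DD and 959 with the PDGF-DD vehicle. That was 2.10-fold with PDGF-DD over its vehicle. Msmo1, the methylsterol oxidase, had 775, 633, 4662 and 2097 in the same order, 2.22-fold. Hsd17b7, the sterol ketoreductase, had 184, 207, 880 and 398, 2.21-fold. The IL-1b arrays lay close together in Sqle, Msmo1 and Hsd17b7, and the PDGF-DD array stood alone at the top.

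Sc5d, the lathosterol desaturase, had 332 with IL-1b, 433 with its vehicle, 1042 with PDGF-DD and 515 with the PDGF-DD vehicle, 2.03-fold with PDGF-DD. Its other probe sets gave log2 ratios of 1.20 and 0.57, so its call depended on the probe set. Dhcr7, which reduces dehydrocholesterol to cholesterol, had 190 with IL-1b, 153 with its vehicle, 554 with PDGF-DD and 326 with the PDGF-DD vehicle, a PDGF-DD ratio of 0.77. Cyp51, the lanosterol demethylase, had 918, 850, 4260 and 2606 in the same order, a ratio of 0.71. In both genes the PDGF-DD vehicle array was already above the IL-1b arrays. Ebp, the sterol isomerase, had 162, 108, 519 and 316, a ratio of 0.71. Nsdhl, the sterol dehydrogenase, had 516, 405, 1407 and 921, a ratio of 0.61. Fdft1, squalene synthase, and Lss, lanosterol synthase, had the smallest PDGF-DD ratios of the group, 0.30 and 0.28. Stard4, a cytosolic carrier of cholesterol, had 101 with IL-1b, 76.3 with its vehicle, 198 with PDGF-DD and 129 with the PDGF-DD vehicle, a PDGF-DD ratio of 0.62. A further probe set of Stard4 gave -0.35, the largest disagreement between probe sets of a gene in this comparison.

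Among the fatty acid synthesis genes of the set, those that supply the precursors had the smaller PDGF-DD ratios. Acly (ATP citrate lyase), Acss2 (acetyl-CoA synthetase) and Acaca (acetyl-CoA carboxylase), which supply the precursors, had PDGF-DD log2 ratios of 0.26, 0.09 and 0.25. Acly had 1173 with IL-1b, 1193 with its vehicle, 2281 with PDGF-DD and 1906 with the PDGF-DD vehicle. Acss2 had 388, 445, 689 and 648 and Acaca 537, 431, 778 and 654 in the same order, so in all 3 both PDGF-DD arrays lay above both IL-1b arrays. Fasn, the fatty acid synthase, had 898 with IL-1b, 815 with its vehicle, 2001 with PDGF-DD and 1205 with the PDGF-DD vehicle, a PDGF-DD ratio of 0.73. Elovl6, which elongates saturated fatty acids, had 123, 184, 695 and 331 in the same order. Elovl6 was 2.10-fold higher with PDGF-DD than with its vehicle, and its other probe set gave a log2 ratio of 1.38. Scd, the stearoyl-CoA desaturase, had 49.4, 11.9, 573 and 256. Scd was 2.24-fold higher with PDGF-DD than with its vehicle, and its IL-1b vehicle value was under the floor. Scd2, a related gene outside the set, had 4587, 3074, 6085 and 5338 in the same order, a PDGF-DD log2 ratio of only 0.19. Scd2 was 1.74-fold higher with the PDGF-DD vehicle than with the IL-1b vehicle.

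The genes that desaturate or elongate polyunsaturated fatty acids were within 2-fold on the PDGF-DD pair. Fads1 had a log2 ratio of 0.75, Fads2 of 0.06 and Elovl5 of 0.02.

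**Figure D3:**
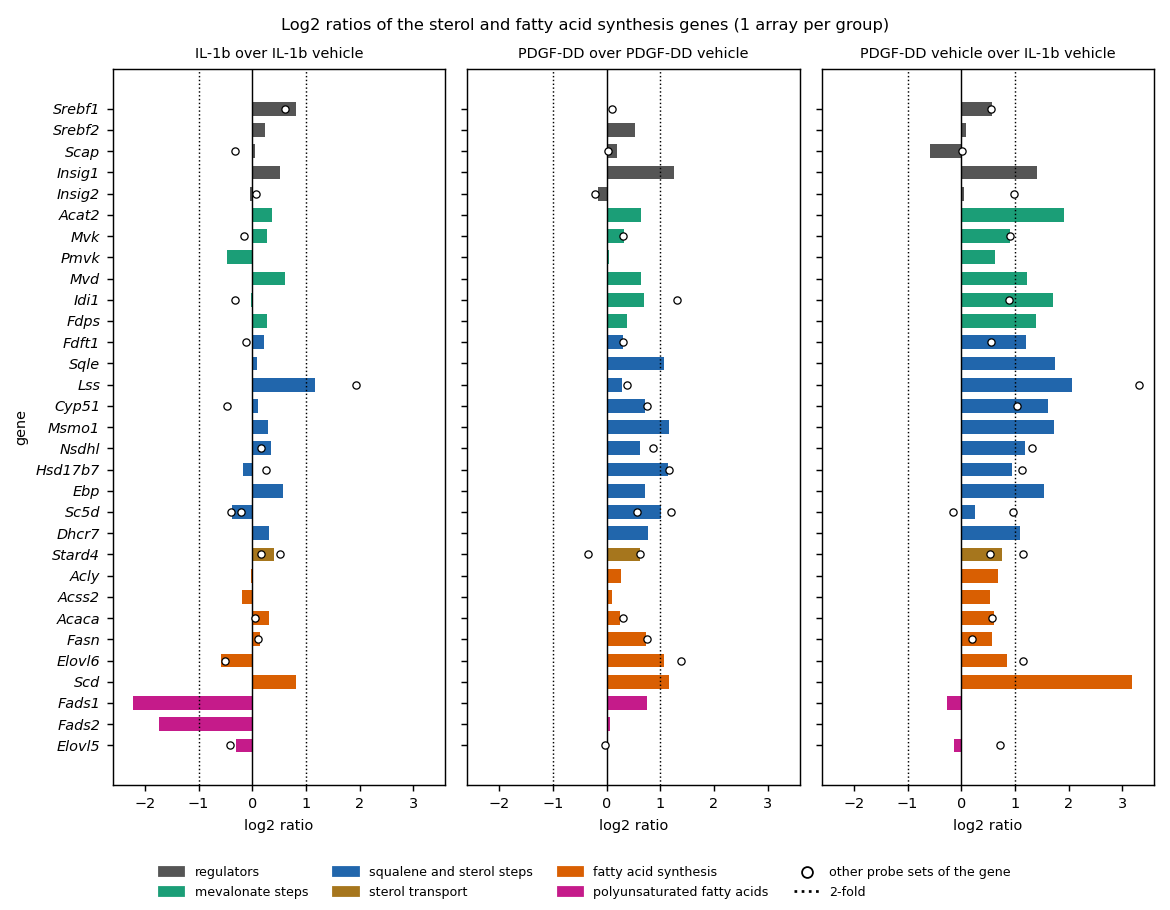
Log2 ratio of each gene in the comparisons of IL-1b with its vehicle, PDGF-DD with its vehicle and the PDGF-DD vehicle with the IL-1b vehicle. Bars show the probe set that stands for the gene, open circles its other probe sets above the floor, and dotted lines a 2-fold difference. The PDGF-DD bars lie right of 0 for 30 of 31 genes, and the IL-1b bars of Fads1 and Fads2 reach beyond 2-fold to the left.

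Proliferation genes differed between the arrays in the same order. Of 16 measured S phase genes, the summed intensity was 3464 on the IL-1b array, 3426 on the IL-1b vehicle array, 16541 on the PDGF-DD array and 7946 on the PDGF-DD vehicle array. The summed intensity of 19 G2/M genes was 1637, 1766, 20204 and 10742 in the same order. Mki67, a marker of dividing cells, had 1799 with PDGF-DD and 858 with its vehicle. Smooth muscle markers had a summed intensity of 4501 with PDGF-DD and 22334 with its vehicle. The part of cell division or of these markers in the sterol values was not tested, and on arrays of whole cultures more cells in a state and more RNA per cell cannot be told apart.

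The vehicle arrays were themselves far apart in these genes, although neither culture received a factor. Set against the IL-1b vehicle, the PDGF-DD vehicle was at least 2-fold higher in 14 of 31 genes, where 5.79% of all 10389 genes were, and lower in 0, where 4.67% were. The median log2 ratio was 0.91, against -0.05 over all genes. With arrays centred on reference genes the median of all genes became -0.35 and that of the set 0.59, with 24 in place of 28 genes above 0. Scd was at least 9.13-fold higher with the PDGF-DD vehicle, Lss 4.16-fold (1068 against 257), Acat2 3.77-fold, Sqle 3.34-fold, Msmo1 3.31-fold and Idi1 3.26-fold. In the mevalonate group all 6 genes were higher, with a median of 1.31, and in the squalene to cholesterol group all 10, with a median of 1.37. Fatty acid synthesis genes had a smaller median, 0.64, and Fads1, Fads2 and Elovl5 had ratios of -0.27, 0.01 and -0.13. The other probe set of Elovl5 gave 0.72, so its direction depended on the probe set. Dhcr7, at 1.09, was just inside the 2-fold rule and Hsd17b7, at 0.94, just outside.

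The summed S phase and G2/M intensities given above were also higher with the PDGF-DD vehicle. The hybridization control BioC, which is added from outside the cells, had 521 with IL-1b, 552 with its vehicle, 167 with PDGF-DD and 196 with the PDGF-DD vehicle, so the arrays of one factor differed from those of the other in this control as well. The other such controls were nearer to level between the vehicle arrays. BioD had 1867 with the PDGF-DD vehicle and 1538 with the IL-1b vehicle. BioB had 183 and 181 and Cre 7218 and 6858 in that order. All of these controls, BioC included, were lowest on the PDGF-DD array, with BioD at 1420.5, BioB at 140 and Cre at 5539. The part of these controls and of the cell division genes in the sterol values was not tested. The vehicles differ in albumin and acetic acid, and this difference cannot be told apart from one between cultures or arrays. Because the PDGF-DD vehicle value enters the PDGF-DD ratio and this one with opposite signs, their sum is the ratio of PDGF-DD to the IL-1b vehicle. By that ratio 20 of 31 genes were at least 2-fold higher, where 9.64% of all genes were, and 0 lower, where 10.3% were, with Scd at least 20.4-fold, Msmo1 7.36-fold and Sqle 7.02-fold higher.

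**Figure D4:**
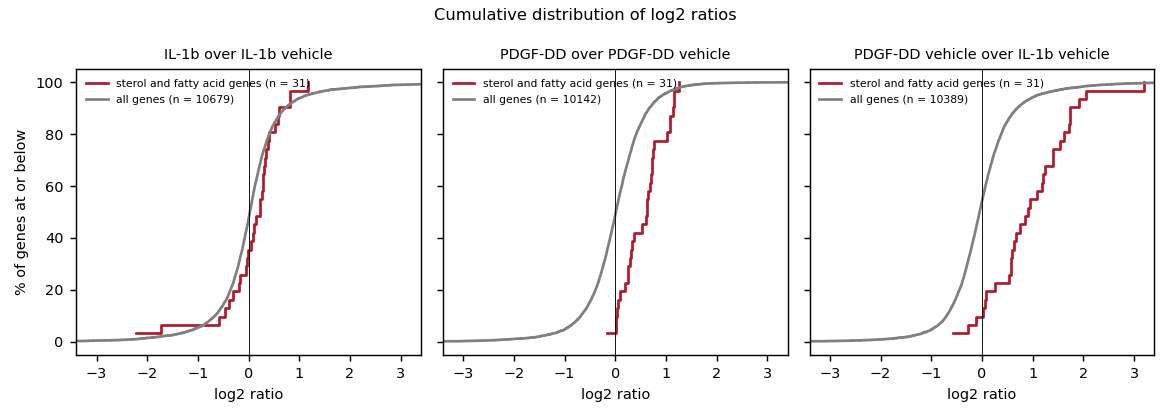
Cumulative percentage of genes at or below each log2 ratio for the 31 sterol and fatty acid genes and for all genes tested, in the same comparisons; the x axes end at 3.4 in either direction. The curve of the 31 genes lies right of that of all genes for PDGF-DD (medians 0.62 and 0.01) and for the vehicle arrays (0.91 and -0.05), and nearer to it for IL-1b (0.23 and 0.02).

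With IL-1b, most sterol genes were close to the IL-1b vehicle, and the polyunsaturated fatty acid desaturases were much lower. At least 2-fold higher was 1 of 31 genes, Lss, where 6.15% of all 10679 genes were, and at least 2-fold lower were Fads1 and Fads2, where 5.42% were. The counts of 1 and 2 are thus near the shares of all genes. The median log2 ratio was 0.23, against 0.02 over all genes.

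Fads1 and Fads2 encode the front-end desaturases that make arachidonic acid and other long polyunsaturated fatty acids. Fads1 (gene ID 84575) had 182 with IL-1b, 844 with its vehicle, 1173 with PDGF-DD and 700 with the PDGF-DD vehicle. The IL-1b array was 4.64-fold below its own vehicle and 3.85-fold below the PDGF-DD vehicle, and its IL-1b ratio had rank 101 from the lowest among 10679 genes. Fads2 (gene ID 83512) had 25.5 with IL-1b, under the floor, against 93.3 with its vehicle, 98.1 with PDGF-DD and 94.1 with the PDGF-DD vehicle. Fads2 was at least 3.32-fold lower with IL-1b than with its vehicle and at least 3.35-fold lower than with the PDGF-DD vehicle. In both genes the IL-1b array was below the other 3 arrays, which lay close together for Fads2 and ranged from 700 to 1173 for Fads1. Fads1 and Fads2 were the genes of the set at least 2-fold lower than both vehicle arrays, where 1.75% of all 10802 genes were, and 0 genes of the set were higher than both, where 3.05% were. Smooth muscle markers were lower with IL-1b too, with a summed intensity of 8800 against 30005 with its vehicle, and their part was not tested. Each desaturase was read by a single probe set. Fads1, Fads2 and Fads3 lie next to one another on chromosome 1 in the RefSeq annotation, with a long noncoding RNA gene and a pseudogene between Fads2 and Fads1. Fads3, a related gene outside the set, had 295 with IL-1b, 446 with its vehicle, 953 with PDGF-DD and 570 with the PDGF-DD vehicle, a log2 ratio of -0.60 for IL-1b. Elovl5, which elongates the products of Fads2, had 1788 with IL-1b and 2218 with its vehicle, 1.24-fold lower.

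Lss had 578 with IL-1b, 257 with its vehicle, 1298 with PDGF-DD and 1068 with the PDGF-DD vehicle. Its log2 ratio of 1.17 with IL-1b was at least 1.94 by its other probe set, where the vehicle was under the floor, but -0.88 against the PDGF-DD vehicle. Srebf1 had 374 with IL-1b and 213 with its vehicle, a log2 ratio of 0.81, and 0.60 by its other probe set. Scd was at least 1.76-fold higher, Mvd, Ebp and Insig1 were 1.52-fold, 1.49-fold and 1.43-fold higher, and Elovl6 was 1.49-fold lower (123 against 184). Sqle, Cyp51, Idi1 and Acly had log2 ratios of 0.08, 0.11, -0.02 and -0.02. The other probe sets of Cyp51 and Idi1 gave -0.47 and -0.33. Of 16 genes with several probe sets above the floor, all probe sets had the same sign in 10 with IL-1b, 14 with PDGF-DD and 13 between the vehicle arrays.

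Against the PDGF-DD vehicle the IL-1b array was at least 2-fold lower in 12 of the 31 genes, where 4.97% of all genes were, and higher in 0, where 5.44% were. Among the 12 were Scd (5.19-fold), Idi1 (3.31-fold) and Sqle (3.16-fold). Whether IL-1b went with more or less of the sterol genes therefore depended on the vehicle, and for Fads1 and Fads2 it did not.

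**Figure D5:**
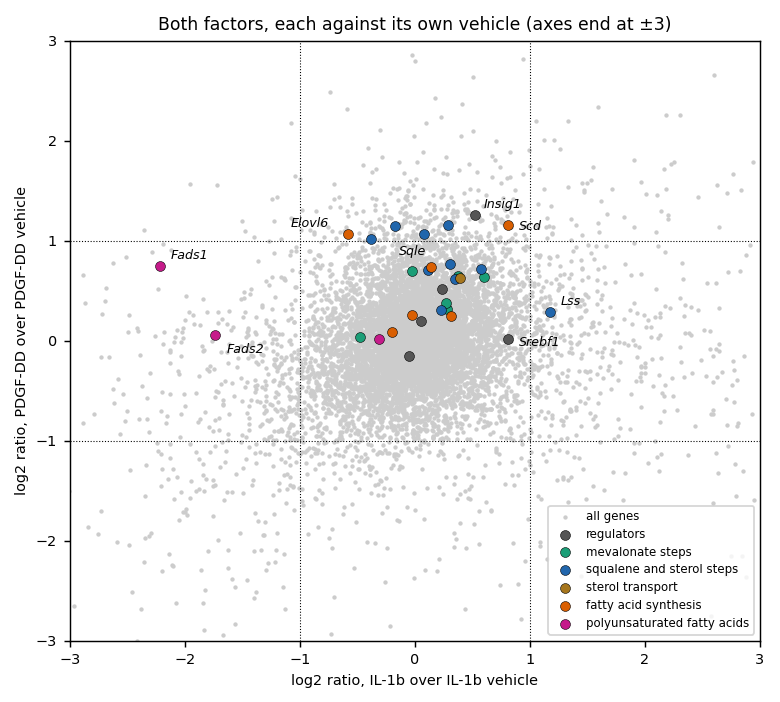
Log2 ratio of IL-1b over its vehicle (x) against PDGF-DD over its vehicle (y) for all genes (grey) and the 31 sterol and fatty acid genes (coloured by role); dotted lines mark 2-fold, and no array is shared between the axes. Most coloured points lie above 0 on the y axis and near 0 on the x axis, and Fads1 and Fads2 lie far left at -2.22 and -1.73.

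Other genes of the pathways were read from lists that did not overlap the set. Of 16 further sterol pathway genes, 1 was at least 2-fold higher with PDGF-DD than with its vehicle and 0 lower, where 4.24% and 4.67% of all genes were, with a median log2 ratio of 0.08. The count of 1 in 16 is near the share of all genes. That gene was Aacs, which makes acetoacetyl-CoA for lipid synthesis, with 194 with IL-1b, 200 with its vehicle, 658 with PDGF-DD and 289 with the PDGF-DD vehicle. Erlin1, a membrane protein that takes part in sterol-regulated degradation, and Lbr, a sterol reductase of the nuclear membrane, had PDGF-DD ratios of 0.83 and 0.80. Tm7sf2, the other sterol reductase of that step, had 124, 105, 514 and 426 in the same order, and differed 4.07-fold between the PDGF-DD vehicle and the IL-1b vehicle. With IL-1b, 0 of the 16 were at least 2-fold higher or lower than with its vehicle, where 6.15% and 5.42% of all genes were. In 16 genes a count of 0 is near those shares.

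Of 21 further fatty acid genes, 1 was at least 2-fold higher with PDGF-DD than with its vehicle and 0 lower, again near the shares of all genes (4.24% and 4.67%). Acsl4, an acyl-CoA synthetase that prefers arachidonic acid, had 2151 with IL-1b, 468 with its vehicle, 2712 with PDGF-DD and 1165 with the PDGF-DD vehicle. It was 2.33-fold higher with PDGF-DD and 4.60-fold higher with IL-1b, each against its own vehicle, and 1.85-fold higher with IL-1b than with the PDGF-DD vehicle. With IL-1b, of 20 genes tested Acsl4 and Acsl1 were at least 2-fold higher, where 6.15% of all genes were, and 1 was lower, where 5.42% were. That gene was Hacd1, a dehydratase of fatty acid elongation. Hacd1 had 701 with IL-1b, 2252 with its vehicle, 1187 with PDGF-DD and 1598 with the PDGF-DD vehicle, and was 3.21-fold and 2.28-fold lower with IL-1b than with the IL-1b and PDGF-DD vehicles.

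A list of 9 genes held the liver X receptors Nr1h2 and Nr1h3, which sense oxysterols and drive cholesterol export, and 7 of their targets. With PDGF-DD all 9 had a log2 ratio under 0 (median -0.40), but 4 of these ratios, those of Abcg1, Nr1h3, Smpdl3a and Pltp, are bounds at the floor. On the values as deposited 7 of 9 were under 0, and with arrays centred on reference genes 6 of 8 were. At least 2-fold lower were 2 of 9, where 4.67% of all genes were. Mylip, a ubiquitin ligase that degrades the lipoprotein receptor, had 995 with IL-1b, 611 with its vehicle, 195 with PDGF-DD and 410 with the PDGF-DD vehicle. Mylip was thus 2.10-fold and 3.13-fold lower with PDGF-DD than with the PDGF-DD and IL-1b vehicles. Pltp, a phospholipid transfer protein, was at least 2.36-fold lower with PDGF-DD than with its vehicle, but was above the floor only on the PDGF-DD vehicle array. With IL-1b the median of 7 such genes was 0.67, and 6 of 7 were above 0. At least 2-fold higher were 2 of 7, Abcg1 and Lpcat3, where 6.15% of all genes were. At least 2-fold lower was 1 of 7, Apoe, where 5.42% of all genes were. Lpcat3 had 1310 with IL-1b against 641 with its vehicle, 2.04-fold higher. Abcg1, a cholesterol exporter, had 111 with IL-1b against 45.5 with its vehicle, 2.44-fold higher, and Apoe, apolipoprotein E, had 49.3 against 121, 2.46-fold lower. Of 10 fatty acid oxidation genes tested with IL-1b, 0 were at least 2-fold higher and 1 was lower, where 6.15% and 5.42% of all genes were. Their median log2 ratio was 0.15. Of 9 tested with PDGF-DD, 0 were at least 2-fold higher or lower, where 4.24% and 4.67% of all genes were. The median of these 9 was -0.06. In lists this short, such counts are near the shares of all genes.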

How the data were processed

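RNA of rat aortic smooth muscle cells was measured on 4 arrays, 1 per group, and the sample titles gave the groups. Per the submitters' processing notes, the authors used MAS5 to make the deposited values, which are intensities on a linear scale. Its version and target are not known here. All deposited columns had a median intensity of 53.3. Each array was rescaled to a common mean over probe sets after trimming 2% at each end (factors 1.01 for IL-1b, 1.03 for its vehicle, 0.951 for PDGF-DD and 1.01 for its vehicle), floored at the 40th percentile and put on the log2 scale. Probe sets were named from the 2016 platform annotation. Of 20832 with 1 symbol, the brightest of a gene's probe sets by mean log2 value was used for it, and 31 of 31 measured genes of the set matched RefSeq (GRCr8) by gene identifier. A gene was tested for a 2-fold difference where it was above the floor on at least 1 array compared. The text names the genes of the set and, from each further list, up to 4 with the largest absolute log2 ratio in a comparison. Mki67, Nr1h2 and Smpdl3a are named besides. The marker genes at or under the floor and the array controls were named after their values were seen. The genes and lists were chosen with earlier results of these data known. No p-value or SD can be given with 1 array per group, and the number of arrays limits the precision. The steps were tested on simulated data. Analysis used Python 3.11.15, numpy 2.4.6, pandas 2.3.3 and matplotlib 3.10.9. Promoter sequences are from RefSeq (GRCr8).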

Additional observations from a re-analysis of the deposited data

Results flagged for a closer look

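For 5 genes of the set the IL-1b and PDGF-DD arrays differed from their own vehicles in opposite directions, at least 1 of them by 2-fold or more. The difference between the factors was not tested, as each rests on single arrays. Taking the PDGF-DD log2 ratio from the IL-1b one gave -2.96 for Fads1 (-2.22 with IL-1b and 0.75 with PDGF-DD) and -1.79 for Fads2 (-1.73 and 0.06), whose IL-1b value was at the floor. For Elovl6 it was -1.65 (-0.58 and 1.07), for Sc5d -1.40 (-0.38 and 1.02) and for Hsd17b7 -1.32 (-0.17 and 1.15). The other probe set of Hsd17b7 gave 0.26 with IL-1b and 1.16 with PDGF-DD, so its opposite direction depended on the probe set.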

How the results depend on the processing

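The counts and medians of the set were recomputed under other scalings, floors, filters, probe set rules, thresholds and vehicles. Against the other vehicle array, the PDGF-DD count of higher genes was 20 in place of 7 and its median 1.502 in place of 0.62, and against the mean of both vehicles the count was 17. For IL-1b, the other vehicle gave 0 higher and 12 lower genes and a median of -0.88, the mean of both vehicles gave 0 higher and a median of -0.36, and the log2 ratio of Lss turned to -0.88. A threshold of 1.5-fold gave 17 genes higher with PDGF-DD, 16 higher than both vehicles, and 4 higher with IL-1b. A floor at the 20th percentile gave 2 genes higher with IL-1b. A floor at the 60th percentile left 1 gene lower with IL-1b, and 1 lower than both vehicles, since Fads2 is then at the floor on every array. The shorter sterol element core, chosen after seeing the data, matched 5 promoters in place of 0. The remaining 108 recomputed values stayed within 1.5 times for counts and, for medians, within a 1.5-fold difference on the unlogged scale. Of 685 recomputed log2 ratios of single genes, 51 changed sign, 35 of them with another vehicle setting, among which 17 were IL-1b ratios against the other vehicle. Lss was the only gene past 2-fold whose ratio did so. Under all other settings the 16 ratios that changed sign were at most 0.25 in size as reported. Centring on 8 reference genes moved the median of all genes between the vehicle arrays to -0.35, and 10 of the 14 genes higher on the PDGF-DD vehicle array stayed so. Quantile normalization and averaging over probe sets each kept 6 of the 7 genes higher with PDGF-DD. No paired analysis was possible because each group has 1 array. Low probe sets such as those of Scd and Fads2 are measured only to a bound at the floor.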
